A study of Homo sapiens with 6 samples.

Results

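To describe how the genes of a growth factor receptor pathway respond to loss of CEP20, the transcripts of EGFR, ERBB2, ERBB3, MET, AREG, EREG, HBEGF, TGFA and ERRFI1 were examined in A549 cells. These 9 genes, which are 3 receptors of the EGFR family, the receptor MET, 4 ligands and the inhibitor ERRFI1, were picked by symbol from the 60624 genes in the TPM table. All 9 reached a mean of at least 1 TPM and were therefore among the 14778 genes tested. A549 cells were derived from a human lung adenocarcinoma and are an established line. RNA-seq was performed on 3 siCEP20 samples, transfected with small interfering RNA (siRNA) against CEP20, a centrosomal protein that binds microtubules, and on 3 siCTR samples, transfected with control siRNA. Both groups were transfected for 3 days and differ in the siRNA only, as far as the labels state. The labels do not tell which CEP20 siRNA was used, 1 of their fields names a plasmid transfection, and nothing states that the replicates were separate cultures, so that the p-values here measure the spread between these samples, which may be technical.

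Receptors of the EGFR family are cell surface tyrosine kinases that pair with each other when a ligand binds, and their signaling through the RAS and PI3K routes drives the growth of epithelial cells. Their ligands are made as membrane-anchored precursors that proteases of the ADAM family release, so a cell that makes both ligand and receptor can stimulate itself. MET is the receptor of hepatocyte growth factor (HGF), and ERRFI1 (also called MIG6) is a cytoplasmic protein that binds the kinase domain of active EGFR family receptors and shuts it off. EGFR and MET are well known oncogenes of lung adenocarcinoma.

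TPM, a unit of transcript abundance, divides the reads of a gene by transcript length, and then by the library's total of these length-scaled values. Levels of different genes can thus be compared within a library. Each library's values have the same total, and the sequencing depth is unknown. Between 14429 and 14600 genes reached 1 TPM in siCTR libraries and between 14851 and 14987 in siCEP20 libraries. Differences were tested with limma on log2(TPM + 1), which understates the change of genes with low TPM, and a log2 fold change, given with its standard error (SE), is always siCEP20 against siCTR. "Rose" and "fell" are used for an adjusted p-value under 0.05 (Benjamini-Hochberg over all tested genes), and "called" for genes that also passed a fold change of 1.5 or 0.67 on this scale, the thresholds of the study. Over all tested genes the log2 fold change had a median of 0.13, which median-of-ratios scaling of the libraries shifted to -0.0052, so changes are also given relative to this median. CEP20 itself fell to 51.4% of its control level (log2 fold change -0.92, adjusted p = 0.000205).

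The ligand genes AREG and EREG are neighbours on chromosome 4 and were both higher after knockdown, whereas HBEGF was lower and ERRFI1 was higher. The reference DNA just upstream of these 4 genes is shown so that their promoter letters can be read, with HBEGF as the only falling gene. TGFA, which fell as well, is not shown because its windows overlap annotated exons. Each run holds the 250 bases before the annotated start in RefSeq (GRCh38.p14), 5′ to 3′ on the strand of the gene, with no annotated exon inside. Entries were found for 8 of the 9 genes, all but ERBB3. Capitals mark matches to motifs, each searched on both strands. The TATA box was spelled TATAAA. The cAMP response element was spelled TGACGTCA. The GC box was spelled GGGCGG. The AP-1 motif, spelled TGANTCA, was searched as well.
AREG, chr4:74444886-74445135, plus strand: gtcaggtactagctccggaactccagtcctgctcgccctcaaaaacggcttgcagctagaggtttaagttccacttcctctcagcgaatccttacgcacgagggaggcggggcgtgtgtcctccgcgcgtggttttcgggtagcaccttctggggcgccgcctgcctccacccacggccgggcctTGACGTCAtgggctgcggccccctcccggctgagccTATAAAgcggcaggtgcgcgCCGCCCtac
EREG, chr4:74364895-74365144, plus strand: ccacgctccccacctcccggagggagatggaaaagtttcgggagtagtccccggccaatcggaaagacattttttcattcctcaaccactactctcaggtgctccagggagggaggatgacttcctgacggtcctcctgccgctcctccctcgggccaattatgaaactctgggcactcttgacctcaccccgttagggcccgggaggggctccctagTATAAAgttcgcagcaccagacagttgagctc
HBEGF, chr5:140346604-140346853, minus strand: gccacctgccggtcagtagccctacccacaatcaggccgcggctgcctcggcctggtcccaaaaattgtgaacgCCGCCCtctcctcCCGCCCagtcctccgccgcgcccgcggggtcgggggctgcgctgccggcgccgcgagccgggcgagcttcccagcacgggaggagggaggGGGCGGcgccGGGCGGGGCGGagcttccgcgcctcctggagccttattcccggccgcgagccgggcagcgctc
ERRFI1, chr1:8026310-8026559, minus strand: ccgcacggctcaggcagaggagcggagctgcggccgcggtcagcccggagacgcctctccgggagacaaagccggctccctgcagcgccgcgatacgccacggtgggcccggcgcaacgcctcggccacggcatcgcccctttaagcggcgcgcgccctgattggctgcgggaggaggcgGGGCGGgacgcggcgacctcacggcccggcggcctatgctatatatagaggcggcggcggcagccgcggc
AREG and EREG both held a TATA box, at 29 and 32 bases before the start, which 10.8% of the 34943 promoter windows of this length hold. The AREG window also held the cAMP response element, 65 bases before the start, found in 1.63% of windows. HBEGF had 5 GC boxes, ERRFI1 and AREG had 1 each, and EREG had none. Neither HBEGF nor ERRFI1 had a TATAAA. The ERRFI1 window does hold TATATATA close to the start, a spelling that was not searched. GC boxes were common, in 42.5% of windows, and the AP-1 letters, present in 6.59% of windows, occurred in none of the 4. Of the genes not shown, BTC, a ligand gene near AREG that also rose, held none of these motifs. For TGFA, 1 window held 3 GC boxes and no other motif, and the other window held none. These motifs were chosen after the letters had been seen, and a match describes the sequence only.

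Across the receptors, the pair that dominates in A549 cells did not pass the test and the pair of lower abundance rose. EGFR (ENSG00000146648, chromosome 7 of hg38 from 55019017 to 55211628, plus strand), the family member that binds the most ligands studied here, had 99.7, 122 and 121 TPM in the siCTR libraries and 104, 111 and 109 TPM in the siCEP20 samples. All 3 siCEP20 values lay inside the control range. The means were 114 ± 12.6 and 108 ± 3.52 TPM (SD, n = 3 each), with a log2 fold change of -0.08 (SE 0.0846, 95% interval -0.27 to 0.12, adjusted p = 0.503, limma). Relative to all tested genes the change was -0.21. With median-of-ratios scaling EGFR fell, by 0.23 on the log2 scale (adjusted p = 0.0195), and once the values were corrected for the length and GC content of transcripts (the length and GC correction) by 0.35 (adjusted p = 0.00215).

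MET (ENSG00000105976, chromosome 7 from 116672196 to 116798377, plus strand) had 75.2, 84.7 and 95.4 TPM in siCTR libraries and 94.5, 101 and 91.8 TPM in siCEP20 samples. The groups overlapped, because siCTR 3 lay above 2 of the siCEP20 values. MET averaged 85.1 ± 10.1 and 95.9 ± 4.93 TPM (SD, n = 3 each), and its log2 fold change was 0.18 (SE 0.0902, 95% interval -0.03 to 0.38, adjusted p = 0.149, limma). Without siCTR 3 it passed the test at 0.26 (adjusted p = 0.0363). With median-of-ratios scaling the value was 0.02, and after the length and GC correction -0.07, neither past the threshold, so no direction can be given for MET.

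ERBB2 (ENSG00000141736, chromosome 17 from 39687914 to 39730426, plus strand), the ligandless partner receptor of the family, rose in siCEP20 samples. It had 31.6, 32.5 and 35.7 TPM in siCTR libraries and 40.5, 44.02 and 43.9 TPM in siCEP20 samples, with no overlap. The means of 33.3 ± 2.15 and 42.8 ± 1.98 TPM (SD, n = 3 each) differed by 28.6%, with a log2 fold change of 0.35 (SE 0.0739, adjusted p = 0.00586, limma). The increase passed the test in each of 15 alternatives, including median-of-ratios scaling (0.20, adjusted p = 0.0242). ERBB2 overlaps the expressed genes MIEN1 and PGAP3 on the opposite strand, and whether the authors' counting used strand is not given in the sources used here.

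ERBB3 (ENSG00000065361, chromosome 12 from 56076799 to 56103505, plus strand), whose kinase is nearly inactive and which signals through its partners, was the scarcest of the 9 genes. Its TPM was 1.55, 2.15 and 1.57 in siCTR samples and 3.28, 3.95 and 2.69 in siCEP20 samples. Every siCEP20 value lay above every siCTR value, and the mean went from 1.75 ± 0.34 to 3.31 ± 0.633 TPM (SD, n = 3 each), 1.89 times the control level. ERBB3 was called higher with a log2 fold change of 0.64 (SE 0.169, 95% interval 0.25 to 1.03, adjusted p = 0.0162, limma). With median-of-ratios scaling the log2 fold change was 0.53 (adjusted p = 0.0302), no longer past the fold change threshold. The adjusted p rose to 0.0612 without siCEP20 2, to 0.0508 without siCTR 1 and to 0.0548 after the length and GC correction. The depth behind a level this low is unknown.

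The ligands divided into a pair of abundant genes that rose and a pair of scarce genes that fell. AREG (amphiregulin, ENSG00000109321, chromosome 4 from 74445136 to 74455005, plus strand), a low-affinity ligand of EGFR, was the most abundant of the 9 transcripts. It had 288, 289 and 312 TPM in siCTR libraries and 355, 386 and 384 TPM in siCEP20 samples, without overlap. AREG rose from 296 ± 13.8 to 375 ± 17.4 TPM (SD, n = 3 each), or by 26.5%, with a log2 fold change of 0.34 (SE 0.0577, adjusted p = 0.00233, limma).

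EREG (epiregulin, ENSG00000124882, chromosome 4 from 74365145 to 74388749, plus strand) also binds EGFR with low affinity. Its values of 147, 139 and 175 TPM in siCTR samples were all below the 221, 232 and 224 TPM of siCEP20 samples. The mean rose from 154 ± 19.0 to 226 ± 5.83 TPM (SD, n = 3 each), an increase of 46.8%, with a log2 fold change of 0.56 (SE 0.0847, adjusted p = 0.00135, limma). Neither AREG nor EREG passed the fold change threshold, and both passed the test in each of 15 alternatives. With median-of-ratios scaling the log2 fold change was 0.18 for AREG (adjusted p = 0.0173), below its unscaled value. The scaled value of EREG was 0.40 (adjusted p = 0.00434).

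HBEGF (heparin-binding EGF-like growth factor, ENSG00000113070, chromosome 5 from 140332843 to 140346603, minus strand) is a high-affinity ligand of EGFR. Its transcript fell in siCEP20 samples, from 18.2, 20.4 and 22.4 TPM to 13.5, 14.7 and 16.9 TPM, and the groups did not overlap. The mean went from 20.3 ± 2.104 to 15.0 ± 1.74 TPM (SD, n = 3 each), 73.9% of the control level, with a log2 fold change of -0.41 (SE 0.110, adjusted p = 0.0167, limma). HBEGF no longer passed the test without siCEP20 1 (adjusted p = 0.0584), without siCEP20 2 (0.0516) and without siCTR 3 (0.0511), where the log2 fold change was -0.34, -0.40 and -0.35. With median-of-ratios scaling the log2 fold change was -0.56 (adjusted p = 0.00252), and after the length and GC correction -0.48 (adjusted p = 0.00517).

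TGFA (transforming growth factor alpha, ENSG00000163235, chromosome 2 from 70447284 to 70554193, minus strand), another high-affinity ligand of EGFR, was the gene that fell most. It had 11.6, 14.4 and 12.6 TPM in siCTR libraries and 8.04, 9.70 and 8.09 TPM in siCEP20 samples. No values overlapped, and the mean went from 12.9 ± 1.43 to 8.61 ± 0.945 TPM (SD, n = 3 each), 66.9% of the control level. The log2 fold change was -0.53 (SE 0.114, adjusted p = 0.00677, limma), short of the fold change threshold on the log2(TPM + 1) scale. TGFA passed the test in each of 15 alternatives, at -0.67 with median-of-ratios scaling.

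ERRFI1 (ENSG00000116285, chromosome 1 from 8004404 to 8026309, minus strand), the inhibitor, had the smallest adjusted p among the 9 genes. It had 209, 230.0 and 246 TPM in siCTR libraries and 343, 367 and 377 TPM in siCEP20 samples. The lowest siCEP20 value was far above the highest siCTR value, and the mean rose from 228 ± 18.5 to 363 ± 17.5 TPM (SD, n = 3 each), by 58.8%. The log2 fold change was 0.67 (SE 0.0705, 95% interval 0.50 to 0.83, adjusted p = 0.00026, limma), and ERRFI1 was called higher. The increase held in each of 15 alternatives, and under median-of-ratios scaling it stood at 0.51 (adjusted p = 0.000288), no longer past the fold change threshold.

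**Figure D1:**
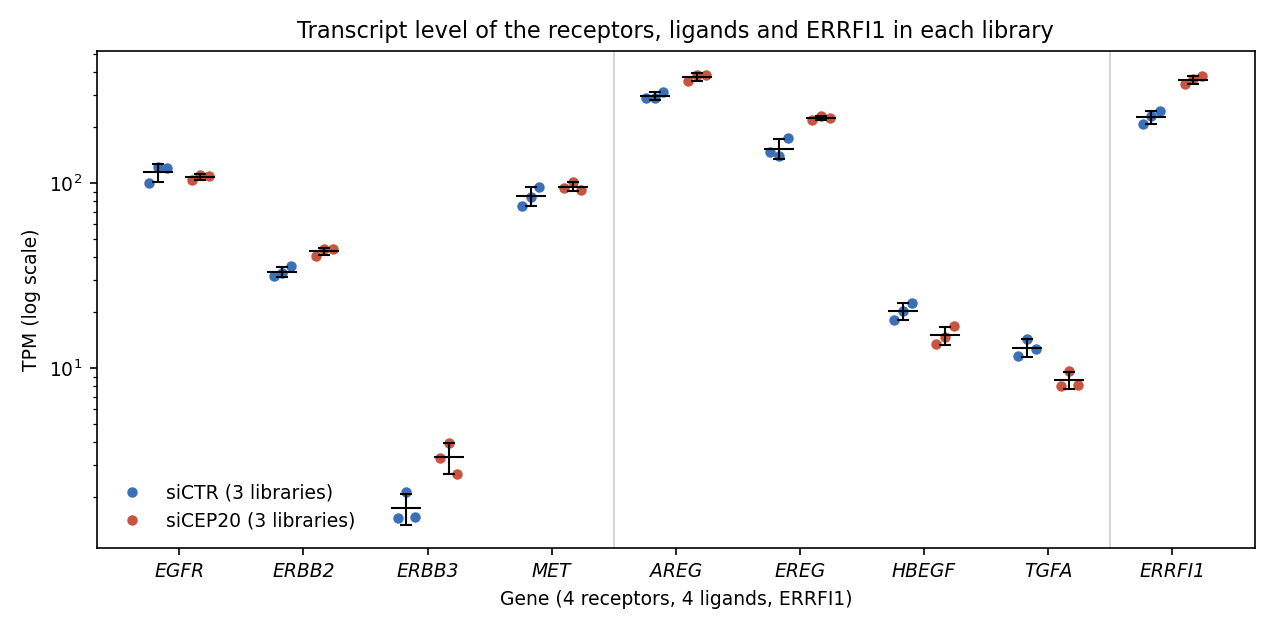
TPM of each gene on a log axis in the 3 siCTR (blue) and the 3 siCEP20 (red) samples, with a wide bar at the mean and whiskers of 1 SD. EGFR and MET overlap between groups, ERBB2, ERBB3, AREG, EREG and ERRFI1 are higher in every siCEP20 sample, and HBEGF and TGFA are lower in every siCEP20 sample.

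Counted together, 5 of the 9 genes rose (ERBB2, ERBB3, AREG, EREG and ERRFI1), beside 30.2% of all tested genes, and 2 fell (HBEGF and TGFA), beside 13.2% of all tested genes. The same 7 genes had groups that did not overlap, 5 higher and 2 lower, where 38.4% of all tested genes were separate and higher and 17.0% separate and lower. With the fold change threshold, 2 genes were called higher (ERBB3 and ERRFI1), beside 11.2% of all tested genes, and none lower, beside 4.61%. The median log2 fold change over the 9 genes was 0.34, or 0.21 relative to all tested genes. With median-of-ratios scaling 5 rose and 3 fell (EGFR added), beside 19.7% and 21.8% of all tested genes, and with the fold change threshold 0 were called higher and 1 lower (TGFA), beside 5.92% and 7.59% of all tested genes. A test of the 9 genes as a set was not made. In the two-sided exact permutation test over samples, each of the 7 separate genes reached p = 0.1, the minimum for 3 against 3, and EGFR had 0.4 and MET 0.3. In bulk RNA, a change in the number of expressing cells and a change in transcripts per cell cannot be told apart.

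**Figure D2:**
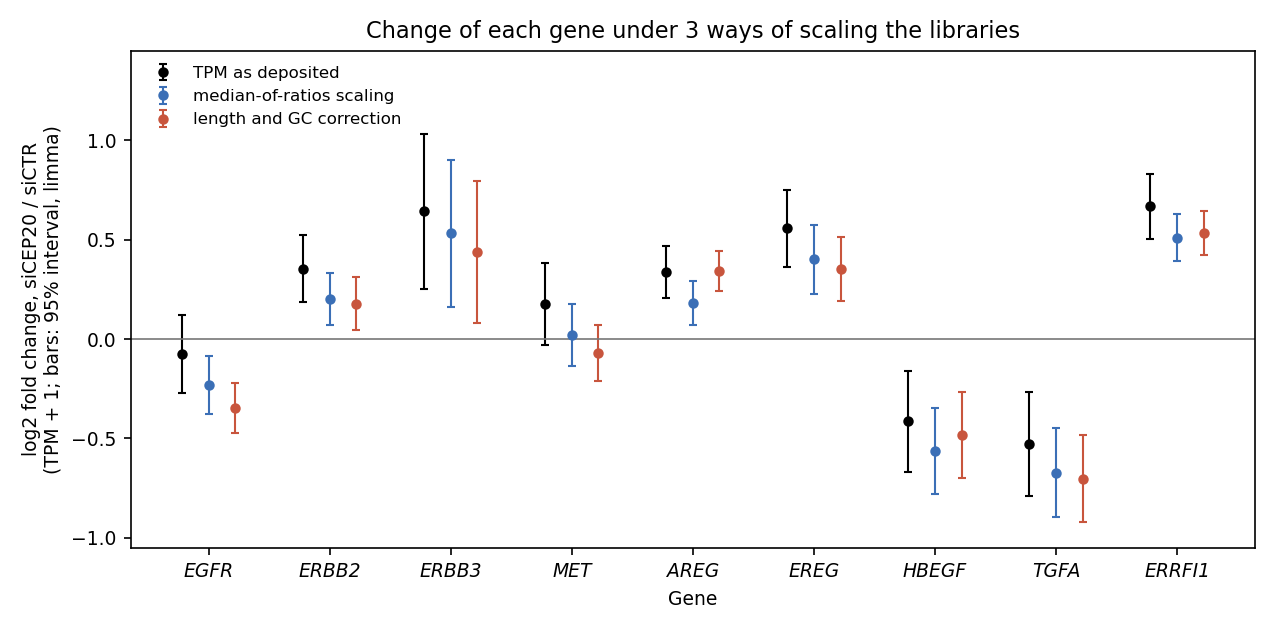
Log2 fold change of each gene, siCEP20 against siCTR on log2(TPM + 1), with 95% intervals from limma, for TPM as deposited (black), median-of-ratios scaling (blue) and the correction for length and GC content (red). EGFR passes below 0 in both adjusted versions (-0.23 and -0.35 against -0.08), MET lies at 0.18, 0.02 and -0.07, and the other 7 genes keep their direction.

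The order of the levels was the same in both groups: AREG, ERRFI1, EREG, EGFR, MET, ERBB2, HBEGF, TGFA and ERBB3, from high to low. In siCTR samples no neighbours in this order overlapped in range. In siCEP20 samples AREG and ERRFI1 overlapped and could not be ordered, since ERRFI1 came to 363 TPM beside 375 TPM for AREG. AREG stood above 97.3% of all tested genes in mean level and ERBB3 above 14.9%. The 9 transcripts together made up between 881 and 1023 TPM of a siCTR library and between 1183 and 1270 TPM of a siCEP20 library.

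Shares within a library do not depend on the scale between libraries, and those of EGFR, ERBB2 and ERBB3 did not overlap between groups. EGFR provided 47.9%, 50.5% and 47.8% of the TPM of the 4 receptors in siCTR samples and 42.9%, 42.6% and 44.1% in siCEP20 samples. The EGFR share was thus lower in every siCEP20 sample (48.7% ± 1.54 against 43.2% ± 0.777, SD, n = 3 each). ERBB2 took a higher share, 14.2% ± 0.882 against 17.1% ± 0.536, again without overlap. ERBB3 went from 0.751% ± 0.137 to 1.32% ± 0.219 of the receptors, also without overlap. The MET share overlapped, at 36.3% ± 1.22 and 38.4% ± 1.08 (exact permutation p = 0.2, adjusted p = 0.225 over the 9 shares and ratios tested). The summed receptor TPM itself overlapped between groups, at 234 ± 23.7 and 249.96 ± 9.19 TPM (SD, n = 3 each).

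Among the ligands, AREG and EREG together made up 93.1% ± 0.573 of the ligand TPM in siCTR libraries and 96.2% ± 0.172 in siCEP20 samples, with no overlap. EREG made up 31.7% ± 1.73 and 36.2% ± 0.752 of the ligands, higher in every siCEP20 sample. Shares and ratios can still depend on transcript length and GC content. After the length and GC correction the log2 fold changes of AREG and EREG were close, at 0.34 and 0.35, beside 0.34 and 0.56 as deposited. The AREG share overlapped, at 61.4% ± 1.42 and 60.1% ± 0.579 (exact permutation p = 0.3, the same after adjustment). HBEGF made up 4.202% ± 0.255 of the ligands in siCTR and 2.40% ± 0.231 in siCEP20 samples, without overlap. TGFA made up 2.67% ± 0.378 and 1.38% ± 0.119, also without overlap. The ratio of summed ligand to summed receptor TPM was 2.23, 1.92 and 2.06 in siCTR samples and 2.46, 2.47 and 2.56 in siCEP20 samples. All siCEP20 ratios were the higher ones, 2.50 ± 0.0524 against 2.07 ± 0.155 (SD, n = 3 each). For this ratio and for the 6 shares that did not overlap, the two-sided exact permutation p was 0.1, the smallest possible, and the adjusted p was 0.129, so the design could not pass 0.05. AREG and EREG carry most of the ligand sum, and with geometric means, which weigh each gene equally, it moved the other way, by -0.37 on the log2 scale instead of 0.27. As ratios chosen after their values had been seen, AREG over EREG went from 1.94 ± 0.147 to 1.66 ± 0.0504, EGFR over ERBB2 from 3.43 ± 0.300 to 2.52 ± 0.0412 and ERRFI1 over EGFR from 2.00 ± 0.106 to 3.36 ± 0.0887 (SD, n = 3 each).

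**Figure D3:**
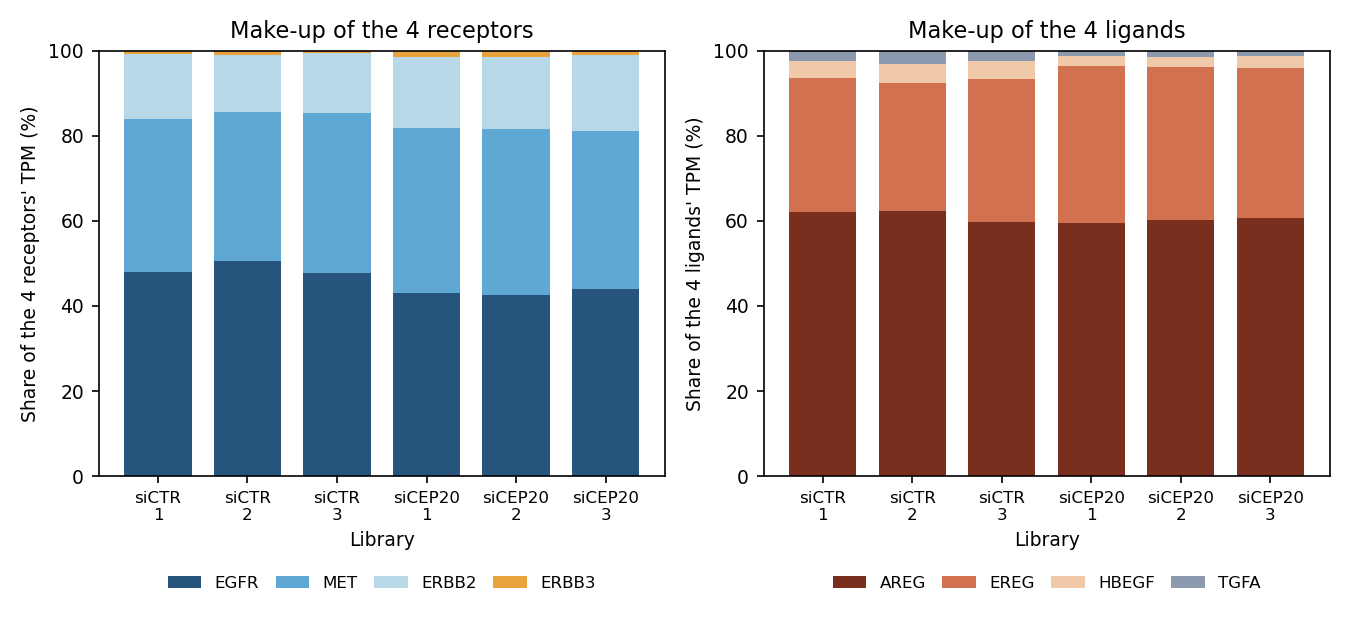
Share of each receptor in the summed TPM of the 4 receptors (left, %) and of each ligand in the summed TPM of the 4 ligands (right, %), 1 stacked bar for each library. The EGFR band is 42.6% to 44.1% in the siCEP20 bars and 47.8% to 50.5% in the siCTR bars, and the HBEGF and TGFA bands are thinner in every siCEP20 bar.

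Of the other receptors and ligands of the EGF family, 3 of 8 were expressed highly enough to be tested, and 2 of them rose. For this list and those that follow, the background is the 30.2% of all tested genes that rose and the 13.2% that fell. BTC (betacellulin, a ligand of EGFR encoded close to AREG) rose from 2.77 ± 0.258 to 5.37 ± 0.742 TPM (SD, n = 3 each), with a log2 fold change of 0.75 (adjusted p = 0.00286, limma), and was called higher. NRG1 (neuregulin 1, a ligand of ERBB3 and ERBB4) had 140 ± 13.8 TPM in siCTR libraries and 168 ± 7.44 TPM in siCEP20 samples, with a log2 fold change of 0.27 (adjusted p = 0.0266). NRG1 passed in 8 of 15 alternatives only, with 0.11 under median-of-ratios scaling (adjusted p = 0.149) and -0.04 after the length and GC correction. Its adjusted p was 0.0891 without siCEP20 2, 0.052 without siCEP20 3 and 0.0506 without siCTR 1. NRG2, at 2.22 ± 0.158 and 1.97 ± 0.442 TPM, did not pass (log2 fold change -0.12, adjusted p = 0.568). ERBB4, EPGN and NRG3 were listed at 0 in every library. EGF had a mean of 0.323 and 0.548 TPM and NRG4 of 0.853 and 0.205 TPM, and both were under the level tested. With NRG1 and BTC counted among the ligands, a choice made after seeing the data, the ligand to receptor ratio went from 2.68 ± 0.149 to 3.19 ± 0.0453.

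The ligand of MET was not seen in these cells, since HGF was listed at 0 in every library. Of the 12 genes of HGF activation and of MET partners, 8 were tested, 5 rose and 1 fell, with a median log2 fold change of 0.44. CD44, a surface glycoprotein that can act as a co-receptor of MET, rose from 452 ± 1.499 to 678 ± 19.99 TPM (adjusted p = 7.33e-05, log2 fold change 0.59). SPINT1, an inhibitor of the proteases that activate HGF, rose from 1.85 ± 0.114 to 4.46 ± 0.252 TPM (log2 fold change 0.94, adjusted p = 0.000738). The far more abundant SPINT2, named after its value was seen, was the gene that fell, from 563 to 486 TPM (log2 fold change -0.21, adjusted p = 0.0154). PLXNB2, a semaphorin receptor of the plexin B group, rose from 107 ± 8.15 to 163 ± 16.7 TPM (log2 fold change 0.60, adjusted p = 0.00125).

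Of 12 genes that release the ligands or control their release, 11 were tested, 7 rose and 1 fell, with a median of 0.42. ADAM15, a metalloprotease, rose from 32.7 ± 3.69 to 54.7 ± 2.76 TPM (log2 fold change 0.73, adjusted p = 0.000555). ADAM9, of the same family, rose from 138 ± 10.9 to 207 ± 11.3 TPM (log2 fold change 0.59, adjusted p = 0.00055), and it overlaps the expressed gene TM2D2 on the opposite strand. RHBDF2, which carries ADAM17 to the cell surface, rose from 68.3 ± 4.28 to 106 ± 14.7 TPM (log2 fold change 0.62, adjusted p = 0.00169). ADAM17 itself, the main protease of AREG, EREG, HBEGF and TGFA and named after its value was seen, did not pass (log2 fold change -0.06, adjusted p = 0.555).

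Of 20 adapters that link the receptors to signaling, all were tested, 10 rose and 2 fell, with a median of 0.33. EPS8, a substrate of EGFR that regulates actin, rose from 26.3 ± 2.21 to 55.2 ± 3.65 TPM (log2 fold change 1.04, adjusted p = 8.36e-05). NCK2, which links receptors to actin regulators, rose from 17.0 ± 1.58 to 28.9 ± 1.62 TPM (log2 fold change 0.73, adjusted p = 0.000506). GRB10, an adapter of the insulin receptor as well, rose from 67.7 ± 3.56 to 108 ± 12.7 TPM (log2 fold change 0.65, adjusted p = 0.000835). GRB2, the adapter that joins active receptors to RAS activation and named after its value was seen, was among the 2 that fell (log2 fold change -0.26, adjusted p = 0.00571).

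Of 20 negative regulators, 19 were tested, 8 rose and 2 fell, with a median of 0.30. The phosphatase gene PTPRJ rose from 46.6 ± 2.91 to 86.8 ± 4.11 TPM (log2 fold change 0.88, adjusted p = 8.01e-05). PTPRK, a further receptor phosphatase that acts on EGFR, rose from 13.8 ± 2.07 to 27.9 ± 2.02 TPM (log2 fold change 0.98, adjusted p = 0.000373). CD2AP, a scaffold that binds the ubiquitin ligase CBL, rose from 10.7 ± 1.25 to 20.3 ± 1.19 TPM (log2 fold change 0.87, adjusted p = 0.000372).

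Of 29 genes of receptor endocytosis and sorting, 28 were tested, 16 rose and 1 fell, with a median of 0.25. EPN1 (epsin 1, an adaptor of clathrin-coated pits) rose from 127 ± 5.79 to 254 ± 12.1 TPM (log2 fold change 1.00, adjusted p = 3.53e-05). Members of the clathrin adaptor AP-2 changed in opposite directions. AP2S1, its small subunit, was the single gene of the lists called lower, from 323 ± 17.1 to 212 ± 6.29 TPM (log2 fold change -0.60, adjusted p = 0.000158). AP2A1, a large subunit that overlaps the expressed gene FUZ on the opposite strand, rose from 90.9 ± 4.25 to 127 ± 5.42 TPM (log2 fold change 0.48, adjusted p = 0.000589).

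Of 16 other receptor tyrosine kinases of epithelial cells, 14 were tested, 7 rose and 1 fell, with a median of 0.21. EPHB2, an ephrin receptor, rose from 49.8 ± 0.334 to 93.6 ± 6.53 TPM (log2 fold change 0.89, adjusted p = 6.61e-05). FGFR1, a fibroblast growth factor receptor that overlaps LETM2 on the opposite strand, rose from 57.9 ± 3.77 to 93.0 ± 2.83 TPM (log2 fold change 0.68, adjusted p = 0.000195). ROR1, a receptor of WNT5A, rose from 7.46 ± 1.44 to 15.3 ± 0.837 TPM (log2 fold change 0.96, adjusted p = 0.000916).

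The 7 lists were chosen with earlier results of these data known. Over them, 103 of 117 genes were tested, of which 55 rose and 8 fell, beside 30.2% and 13.2% of all tested genes. Of the 103 genes, 24 were called higher and 1 lower, beside 11.2% and 4.61% of all tested genes. Their median log2 fold change was 0.30, beside 0.13 for all tested genes. With median-of-ratios scaling 39 of the 103 genes rose and 19 fell, beside 19.7% and 21.8% of all tested genes, and 11 were called higher and 2 lower, beside 5.92% and 7.59%, so the balance of increases and decreases depended on the scale between libraries. The 3 genes with the smallest adjusted p of each list, other than the EGF family list, passed the test in the same direction in all alternatives in which they could be tested.

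**Figure D4:**
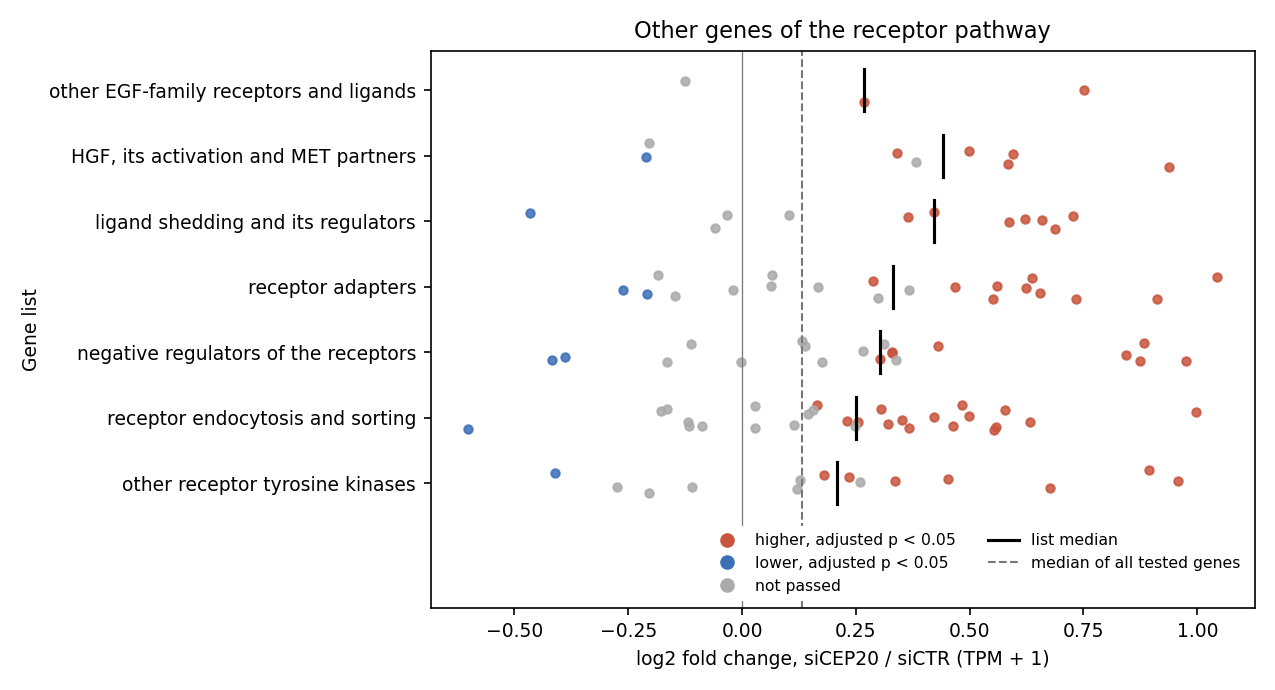
Log2 fold change (siCEP20 against siCTR, log2(TPM + 1)) of the tested genes of 7 lists of the receptor pathway, 1 point for each gene, red if it rose, blue if it fell and grey if it did not pass. List medians (short black bars) run from 0.21 to 0.44, to the right of the median of all tested genes (dashed line, 0.13). The lists were chosen with earlier results of these data known.

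The genes whose log2 levels followed EGFR most closely over the 6 libraries were NFE2L1 (Pearson r = 0.997), CLIP4 (0.987) and TOP1 (0.986). The closest to MET were PALS1 (0.998), CAT (0.996) and KIF23 (0.995). These r values describe 6 libraries that share their groups, among 14778 genes searched.

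The labelled cell type was checked with marker genes. All 6 epithelial markers (KRT7, KRT8, KRT18, KRT19, EPCAM and CDH1) were expressed, with summed levels of 7029 to 7333 TPM in siCTR libraries and 8474 to 8709 TPM in siCEP20 samples, and all 6 rose. KRT7, KRT18 and KRT19 no longer passed with median-of-ratios scaling, and KRT7 missed an adjusted p of 0.05 in 8 of 15 alternatives. EPCAM was low for an epithelial marker, at 0.834 to 1.24 TPM and 3.01 to 3.85 TPM. Of 5 fibroblast markers, COL1A1 and THY1 were expressed and rose, COL1A2 was at 0 everywhere, COL3A1 and PDGFRB were under 1 TPM, and the sum was 12.1 to 15.2 TPM in siCTR and 31.2 to 34.9 TPM in siCEP20 samples. Of the leukocyte markers PTPRC, CD3E, CD14 and CSF1R, only CD14 was above 1 TPM, CD3E was at 0, and the sums were 7.41 to 10.9 and 7.26 to 8.86 TPM. All 4 endothelial markers were under 1 TPM, with sums of 0.0161 to 0.067 TPM in siCTR and 0.0572 to 0.125 TPM in siCEP20 samples. The epithelial and fibroblast sums thus moved together with ERBB2, ERBB3, AREG, EREG and ERRFI1, and their part in these changes was not tested.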

How the data were processed

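RNA-seq of 3 siCEP20 and 3 siCTR samples of A549 cells was analysed. Per the study's methods and the submitters' processing notes, reads were trimmed with fastp 0.20.1, aligned to hg38 with HISAT2 2.1.0 and quantified with StringTie 2.0, and the authors deposited TPM per Ensembl gene. Their own test used DESeq2 on counts, which were not analysed here. The annotation release is not given in the sources used here. Methods and labels differ on medium, RNA kit and RNA input.

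Genes were named with GENCODE release 44 (99.6% of rows matched a symbol), and promoter letters came from RefSeq. Genes averaging 1 TPM or more were compared on log2(TPM + 1) by limma 3.58.1 (R 4.3.3), using lmFit and trended eBayes with neither rescaling nor a replicate term, with Benjamini-Hochberg adjustment. Shares and ratios were compared by exact permutation over samples. The fit was tested on simulated data. The 9 genes and the 7 lists were chosen with earlier results of these data known. The genes named were CEP20, the 9 genes, all other EGF family members, HGF, the 3 with the smallest adjusted p in each other list, and the 3 most correlated with EGFR and with MET. Others were named after their values were seen. 1 marker gene is not reported here. As alternatives, a pseudocount of 0.1, no filter or one of 5 TPM, median-of-ratios scaling, quantile normalization, no trend, the replicate number as a block, a length and GC correction (loess, span 0.5), rows of 1 symbol summed, other fold thresholds and each library left out in turn were tried. Python 3.11.15 with numpy 2.4.6, pandas 2.3.3 and matplotlib 3.10.9 made tables and plots.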

Additional observations from a re-analysis of the deposited data

How the results depend on the processing

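CEP20, ERBB2, AREG, EREG, TGFA and ERRFI1 kept their direction and stayed past an adjusted p of 0.05 in all 15 alternatives. EGFR did not pass as deposited (-0.08) but fell with median-of-ratios scaling (-0.23) and with the length and GC correction (-0.35), and ran from -0.17 to -0.03 with each library left out. MET turned from 0.18 to -0.068 with the length and GC correction and ran from 0.091 to 0.26 with each library left out, past the threshold without siCTR 3. ERBB3 lost its call with the length and GC correction (0.44) and without a filter on TPM (0.64, adjusted p = 0.058). It also lost the call with median-of-ratios scaling (0.53) and quantile normalization (0.49), by fold only. Without siCEP20 2 (0.54) and without siCTR 1 (0.59) the call was lost as well. ERBB3 ran from 0.54 to 0.75 with each library left out, and at a filter of 5 TPM it was not tested. HBEGF no longer passed the test without a filter (-0.41, adjusted p = 0.0584) and ran from -0.50 to -0.34 with each library left out. The cause was not tested, except that without a filter more genes share the adjustment.

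Of the 9 genes, those called higher numbered 2 as deposited, 0 with the length and GC correction, median-of-ratios scaling or a fold of at least 2, 1 with a filter of 5 TPM, no filter or quantile normalization, 5 with no fold threshold, and 1 to 3 with each library left out. Those called lower numbered 0 as deposited, 1 with the length and GC correction, median-of-ratios scaling or quantile normalization, 2 with no fold threshold, and 0 to 1 with each library left out. Those that fell numbered 2 as deposited, 3 with median-of-ratios scaling or the length and GC correction, 1 with no filter and 1 to 2 with each library left out. Of the genes of the lists, 12 were called higher with the length and GC correction, 11 with median-of-ratios scaling, 15 with quantile normalization, 55 with no fold threshold and 1 with a fold of at least 2, and 2, 3, 8 and 0 were called lower with scaling, quantile normalization, no fold threshold and a fold of at least 2, and 0 to 1 with each library left out (0 without siCTR 1). Of all tested genes, 899, 875, 923, 4457 and 261 were called higher in the same order, and 1121, 1944 and 147 were called lower with scaling, no fold threshold and a fold of at least 2. Of all calls, scaling thus left more lower than higher, against 1659 higher and 682 lower as deposited. With each library left out, 1381 to 1905 of all tested genes were called higher and 613 to 706 lower. The ligand to receptor ratio turned from 0.27 to -0.37 on the log2 scale with geometric means and stayed between 0.22 and 0.33 with each library left out. NRG1 turned from 0.27 to -0.039 with the length and GC correction.

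Replicate numbers did not pair the samples: the deviations of samples with the same number correlated at 0.157, -0.0614 and -0.0623. With the replicate number as a block, the log2 fold change of EGFR was -0.08 (adjusted p = 0.391) and none of the 9 genes changed its call, and KRT7 no longer passed (adjusted p = 0.0508). Depth is unknown, so that the precision of ERBB3, the scarcest of the 9, could not be derived from counts.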

Other observations

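The neighbourhoods of the 9 genes were also examined, and the genes below were named after their values had been seen. Within 500 kb of ERBB3, 45 genes were tested, 12 rose and 8 fell, beside 30.2% and 13.2% of all tested genes. Beside the same shares, 6 of 20 rose and 2 fell near HBEGF, and 3 of 13 rose and 1 fell near TGFA. Near ERRFI1, 3 of 7 rose and 1 fell, and near AREG, 5 of 9 rose and 1 fell. Within 500 kb of EREG on chromosome 4, 9 other genes were tested, 6 rose and 1 fell, beside 30.2% and 13.2% of all tested genes. AREG and BTC, already described, are among the 6 that rose. The windows of AREG and EREG overlap, so their counts share most of their genes, and each counts the other ligand gene. CXCL1, a chemokine that attracts neutrophils, rose from 268 ± 32.3 to 513 ± 51.2 TPM (SD, n = 3 each, log2 fold change 0.94, adjusted p = 0.000289, limma), and its position is 73869393 to 73871308. CXCL5, of the same chemokine group, fell from 749 ± 58.3 to 591 ± 36.5 TPM (log2 fold change -0.34, adjusted p = 0.0058) between the rising genes. CXCL2 (0.37) and CXCL3 (0.28) passed as deposited but missed an adjusted p of 0.05 in 8 of 15 alternatives each, median-of-ratios scaling included.

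Within 500 kb of MET, 6 genes were tested, 3 rose and none fell, beside the same shares of all tested genes. CAV1, the main protein of caveolae, rose from 204 ± 26.5 to 352 ± 41.2 TPM (SD, n = 3 each, log2 fold change 0.78, adjusted p = 0.00102, limma). CAV2, its partner, rose from 89.2 ± 15.0 to 133 ± 5.40 TPM (log2 fold change 0.59, adjusted p = 0.00368), and TES, a focal adhesion protein, from 93.5 ± 6.01 to 125 ± 3.51 TPM (log2 fold change 0.42, adjusted p = 0.00128). These 3 passed in all 15 alternatives. Within 500 kb of ERBB2, 20 genes were tested, 11 rose and 1 fell, beside 30.2% and 13.2% of all tested genes. Among them, the adapter gene GRB7 rose from 4.30 ± 0.991 to 8.89 ± 1.07 TPM (log2 fold change 0.91, adjusted p = 0.00268). Within 500 kb of EGFR, 4 genes were tested, 2 rose and 1 fell, beside the same shares of all tested genes. LANCL2, which lies between EGFR and VOPP1, did not pass (log2 fold change -0.12, adjusted p = 0.366). VOPP1 rose from 38.0 ± 1.76 to 61.5 ± 3.26 TPM (log2 fold change 0.68, adjusted p = 0.000215) and SEC61G fell from 301 ± 42.9 to 217 ± 27.7 TPM (log2 fold change -0.47, adjusted p = 0.0157).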
